A study of Mus musculus with 6 samples.

Results

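The TNF receptor superfamily genes described here are 10 receptors chosen by name, Tnfrsf1a, Tnfrsf1b, Tnfrsf9, Tnfrsf10b, Tnfrsf11b, Tnfrsf12a, Tnfrsf21, Fas, Ltbr and Cd40, of the 53465 genes in the deposited table. All 10 were found by gene symbol. They were compared between cells with high and low β-galactosidase activity sorted from an axitinib-resistant population of 4T1, a mouse mammary carcinoma line. Axitinib is an inhibitor of VEGF receptor kinases. The resistant cells came from post-surgical lesions under continuous axitinib at 100 mg/kg/day, and were then cultured in 0.5 µM axitinib for over 2 months. Both fractions therefore carried the same drug exposure, and they differ by their C12FDG signal, which is fluorescent once β-galactosidase has cut the dye. There were 3 libraries of high-signal cells (SM positive) and 3 of low-signal cells (SM negative), and libraries with the same replicate number were treated as pairs. Nothing in the labels says what the number marks, whether the resistant line was 1 clone, or whether replicates were separate cultures, so the spread behind each p-value may be only technical.

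Receptors of the TNF superfamily bind trimeric ligands of the TNF family through cysteine-rich repeats outside the cell. One class, which includes TNFR1, Fas, the TRAIL receptor and death receptor 6, carries a death domain inside the cell and can recruit FADD or TRADD and caspase-8. The other class recruits TRAF adaptors and switches on NF-κB, while osteoprotegerin is secreted and captures ligand as a decoy. In epithelial tumour cells these receptors are known for turning inflammatory signals into survival, migration or cell death, and soluble TNF receptors are often counted among the products that senescent cells release.

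Library totals ran from 18733801 to 26533528 counts. The epithelial identity of the line was seen in all 6 libraries: the summed level of 7 epithelial markers was 4478 to 4692 CPM (counts scaled to the usual common library total) in SM negative and 4199 to 4514 CPM in SM positive libraries, led by Krt7 and Krt18. Of the 7, Epcam, Krt19 and Cldn4 fell in SM positive cells in the paired test used below, where 5.6% of all genes tested fell. None of the 7 passed it without pairing. Krt19 rested on 19 to 47 counts per library. The log2 change was negative for 6 of the 7 and positive for Cdh1 (means of 720 CPM in SM negative and 747 CPM in SM positive cells, edgeR adjusted p = 0.424). Of 10 leukocyte markers, 5 had at most 3 counts in every library and Ptprc, the pan-leukocyte marker, had 0 or 1. The leukocyte sum was 6.68 to 9.09 CPM in SM negative and 4.90 to 6.43 CPM in SM positive cells and was mostly Cd68, with Csf1r next at 0.0398 to 0.506 CPM. The sum of 8 fibroblast and pericyte markers was 3.74 to 4.29 CPM and 4.99 to 7.14 CPM, mostly Pdgfra, which rose (edgeR adjusted p = 0.0423 paired and 0.246 unpaired), with Pdgfrb next, while Lum and Thy1 had 0 counts in all 6 libraries. The 6 endothelial markers, of which Pecam1 and Cdh5 were the highest, summed to 0.278 to 0.427 CPM and 0.0467 to 0.253 CPM. The part of these marker differences in the results for the receptors was not tested. In bulk libraries, fewer cells of a type and less RNA per cell cannot be told apart.

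The upstream windows of 3 receptors that changed between the fractions are shown as the sequence before an annotated RefSeq transcript start of each. Each holds the 250 bases before that start (GRCm38.p6), and the capitals mark GC boxes, the letters GGGCGG on either strand. RefSeq windows were found for 7 of the 10 receptors, 8 windows in all. Tnfrsf1a also changed between the fractions, but its window overlaps an annotated exon and is not printed. Tnfrsf1b, minus strand, chr4:145246871-145247120, and Tnfrsf21, plus strand, chr17:43016305-43016554, were higher in SM positive cells. Tnfrsf9, plus strand, chr4:150919905-150920154, was lower, and this is the first of its 2 annotated windows, both of which lie inside the gene as GENCODE gives it, from 150914562 to 150946102.
Tnfrsf1b: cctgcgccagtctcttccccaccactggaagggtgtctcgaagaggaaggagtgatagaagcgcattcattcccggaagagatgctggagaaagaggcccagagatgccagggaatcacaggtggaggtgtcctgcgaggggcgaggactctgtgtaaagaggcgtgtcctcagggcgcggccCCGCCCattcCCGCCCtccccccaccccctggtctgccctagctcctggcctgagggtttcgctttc
Tnfrsf21: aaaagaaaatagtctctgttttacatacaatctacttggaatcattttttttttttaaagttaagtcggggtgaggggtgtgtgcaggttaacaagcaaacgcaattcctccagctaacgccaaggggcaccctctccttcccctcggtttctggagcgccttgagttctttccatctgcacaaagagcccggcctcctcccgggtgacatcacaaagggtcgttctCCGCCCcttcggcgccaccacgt
Tnfrsf9: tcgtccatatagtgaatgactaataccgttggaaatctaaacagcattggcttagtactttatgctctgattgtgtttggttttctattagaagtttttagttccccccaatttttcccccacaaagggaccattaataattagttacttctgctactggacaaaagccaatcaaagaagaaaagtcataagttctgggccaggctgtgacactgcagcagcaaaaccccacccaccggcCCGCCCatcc
The Tnfrsf1b window is 62.8% G or C and holds 2 GC boxes, which begin 67 and 57 bases before the start. The Tnfrsf21 window (50.4% G or C) holds 1, and so does the Tnfrsf9 window (43.2% G or C). A GC box occurred in a window of 6 of the 7 receptors, but not in the second Tnfrsf9 window. It occurred in 32.7% of the 32851 RefSeq windows of that length that were searched. That share counts windows and not genes, and a difference was not tested. The receptor without a GC box was Tnfrsf1a, which was also higher in SM positive cells. An NF-κB pattern (GGG, any 2 bases, then TTTCC, on either strand) occurred in 1.41% of all windows and, among the receptors, in the second Tnfrsf9 window. The TATA box letters TATAAA occurred in none of the 8 windows and in 12.4% of all windows. A match is a description of the letters and not a measured binding site.

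Tnfrsf12a was by far the most abundant receptor and Tnfrsf11b was all but absent. Per kb of exon, mean levels over the 6 libraries were 209.3 CPM for Tnfrsf12a, 36.1 for Ltbr, 20.1 for Tnfrsf1a, 16.2 for Tnfrsf1b, 10.8 for Tnfrsf10b, 6.66 for Tnfrsf21, 4.48 for Fas, 1.35 for Tnfrsf9 and 0.109 for Cd40. In that order, the ranges over libraries overlapped between Tnfrsf1a and Tnfrsf1b and between Tnfrsf21 and Fas, and between no other neighbours. The Tnfrsf12a level was 5.81 times that of Ltbr and stood above 98% of the genes tested. Of 18 other receptor genes of the family, Tnfrsf22 and Tnfrsf23, mouse receptors that lack a death domain, were the highest at 10.4 and 4.26 CPM per kb. Lengths are the merged exons of each gene, so a level per kb assumes that all annotated exons were transcribed.

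**Figure D1:**
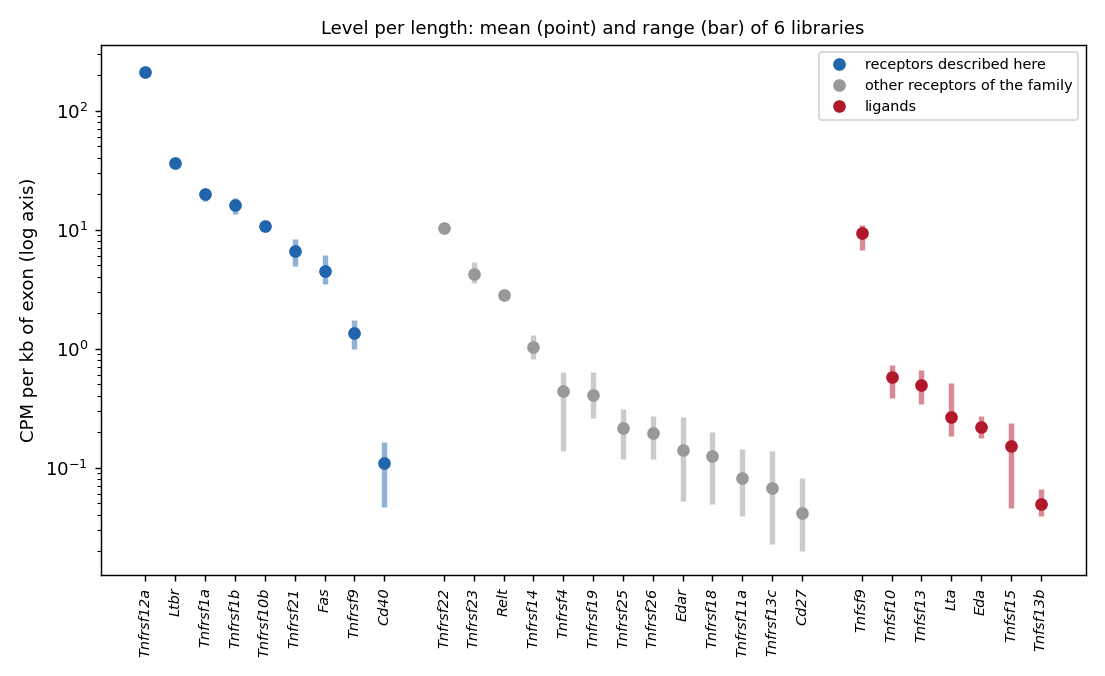
Level per length (CPM per kb of merged exon, log axis) of the receptors described here (blue), the other receptors of the family (grey) and the ligands (red). Points are means and bars the range over 6 libraries, for genes with at least 10 counts in all, so Tnfrsf11b is not drawn. Tnfrsf12a stands highest at 209.3 and, among ligands, Tnfsf9 is highest at 9.36.

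Of the 10 receptors, 8 had enough counts to be tested. In the paired fit Tnfrsf1b, Tnfrsf1a and Tnfrsf21 rose in SM positive cells by 1.27-fold, 1.14-fold and 1.15-fold, and Tnfrsf9 fell by 1.43-fold. The other 4 tested receptors, Fas, Tnfrsf12a, Tnfrsf10b and Ltbr, did not pass the threshold, an adjusted p of 0.05 over all genes tested. Over the 14038 genes tested, 14.1% passed in the same fit, 8.52% higher and 5.6% lower. Without pairing 1.35% passed, 1.14% higher and 0.214% lower, and of the receptors only Tnfrsf1b did. The median log2 change was 0.12 for the 8 tested receptors and -0.0012 for all genes tested, and the median absolute log2 changes were 0.20 and 0.098. Libraries of the 2 fractions did not overlap for Tnfrsf1a, Tnfrsf1b and Tnfrsf9, 3 of the 8, against 19.9% of all genes tested (10.4% higher and 9.42% lower in SM positive cells). Direction was the same in all 3 pairs for 5 of the 8, against 46.6% of all genes tested (23.9% higher in each SM positive library and 22.7% lower), a share too near for a result about the receptors. Tests are edgeR's quasi-likelihood F test with Benjamini-Hochberg adjustment, and levels are CPM scaled by TMM. Each SE of a log2 change was derived from that test, as the absolute log2 change over the square root of F.

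**Figure D2:**
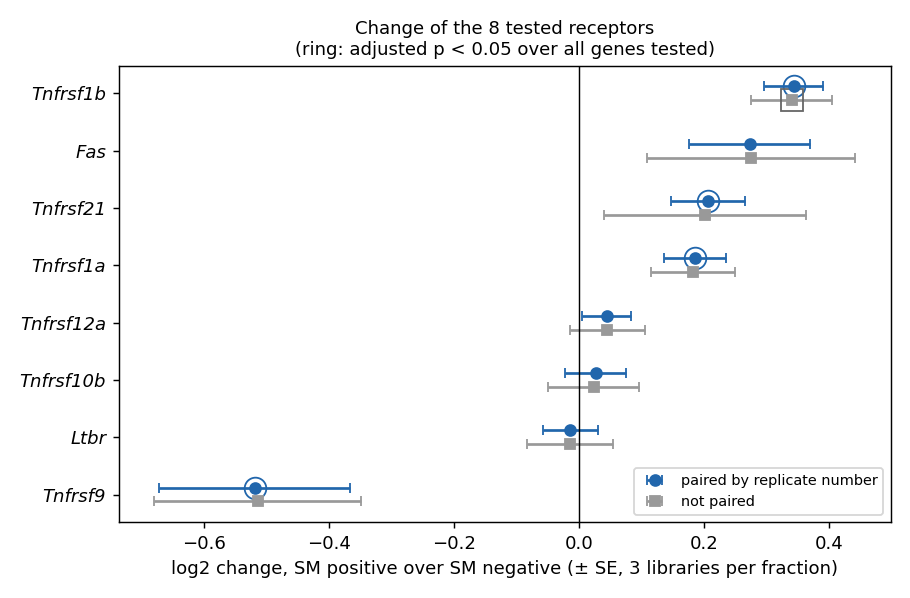
Log2 change of each tested receptor, SM positive over SM negative, in the fit paired by replicate number (blue circles) and without pairing (grey squares). Bars are standard errors with 3 libraries per fraction and rings mark an adjusted p under 0.05. Pairing leaves the values in place and shortens the bars, most for Tnfrsf21 (0.0585 against 0.162).

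Tnfrsf1b encodes TNFR2, which recruits TRAF2 and has no death domain (ENSMUSG00000028599.10, protein coding, chromosome 4, 145213463 to 145246870, minus strand). Its levels were 52.2, 52.7 and 58.5 CPM in SM negative replicates 1, 2 and 3 and 71.0, 66.4 and 69.4 CPM in SM positive replicates 1, 2 and 3. Every SM positive library lay above every SM negative library. The means were 54.5 ± 3.51 and 68.9 ± 2.38 CPM (SD, n = 3 each), and the log2 change was 0.34 ± 0.0477 (SE, edgeR adjusted p = 4.75e-05). Within pairs 1, 2 and 3 the log2 ratio was 0.44, 0.33 and 0.25. The call was kept with any pair left out (edgeR adjusted p from 0.000581 to 0.0129), with DESeq2 (0.00126) and without pairing (0.0349). Only in unpaired fits with 1 library left out did it end, with edgeR adjusted p from 0.0571 to 0.152 over the 6 libraries.

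Tnfrsf1a encodes TNFR1, the death domain receptor that binds TNF on most cells (ENSMUSG00000030341.17, protein coding, chromosome 6, 125349362 to 125362484, plus strand). Its levels were 48.6, 45.4 and 52.3 CPM in SM negative replicates 1 to 3 and 56.5, 54.6 and 55.1 CPM in SM positive replicates 1 to 3. The fractions did not overlap, and the smallest gap was within pair 3 (log2 ratio 0.076, against 0.21 and 0.26). The means were 48.8 ± 3.43 and 55.4 ± 0.962 CPM (SD, n = 3 each), with a log2 change of 0.19 ± 0.0497 (SE, edgeR adjusted p = 0.016). The call ended without pairing (edgeR adjusted p = 0.258), with DESeq2 (0.257), without pair 1 (0.193) and without pair 2 (0.0916).

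The TNFR2 change was larger than the TNFR1 change in each pair as a value, but the difference between both changes was not tested.

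Tnfrsf21 encodes death receptor 6 (ENSMUSG00000023915.4, protein coding, chromosome 17, 43016555 to 43089189, plus strand). Its levels were 20.2, 26.2 and 30.0 CPM in SM negative replicates 1 to 3 and 24.1, 29.7 and 34.0 CPM in SM positive replicates 1 to 3. The fractions overlapped, while each SM positive library lay above its own partner. The mean levels of the pairs spanned 0.52 on the log2 scale, and the log2 change between fractions was 0.21 ± 0.0585 (SE, edgeR adjusted p = 0.0216). The log2 ratio was 0.25, 0.18 and 0.18 in pairs 1, 2 and 3. Without pairing the adjusted p was 0.66 and with DESeq2 it was 0.377. The call also ended without pair 1 (edgeR adjusted p = 0.2) and without pair 3 (0.103). Unpaired, 1 library could move the log2 change: leaving out SM negative replicate 1 gave 0.053 and replicate 3 gave 0.34, while leaving out SM positive replicate 3 gave 0.082 and replicate 1 gave 0.33.

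Fas encodes the death receptor for Fas ligand (ENSMUSG00000024778.12, protein coding, chromosome 19, 34290666 to 34327772, plus strand) and overlaps Gm27818 on the same strand. Its levels were 9.90, 7.20 and 7.95 CPM in SM negative and 12.5, 9.15 and 8.65 CPM in SM positive replicates 1 to 3. Replicate 1 was the highest in both fractions and the fractions overlapped. Each SM positive library lay above its partner, but the difference did not pass (log2 change 0.27 ± 0.097 SE, edgeR adjusted p = 0.0661), nor did it without pairing (0.522).

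Tnfrsf10b encodes the mouse TRAIL death receptor (ENSMUSG00000022074.6, protein coding, chromosome 14, 69767472 to 69784411, plus strand). Its levels were 55.0, 64.3 and 55.2 CPM in SM negative and 59.2, 60.4 and 57.5 CPM in SM positive replicates 1 to 3. The fractions overlapped and the pairs differed in direction (log2 change 0.027 ± 0.0484 SE, edgeR adjusted p = 0.775). Of its 31-base stretches 10.8% also occur in transcripts of other genes, so some of its reads may have been shared out by the counting.

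**Figure D3:**
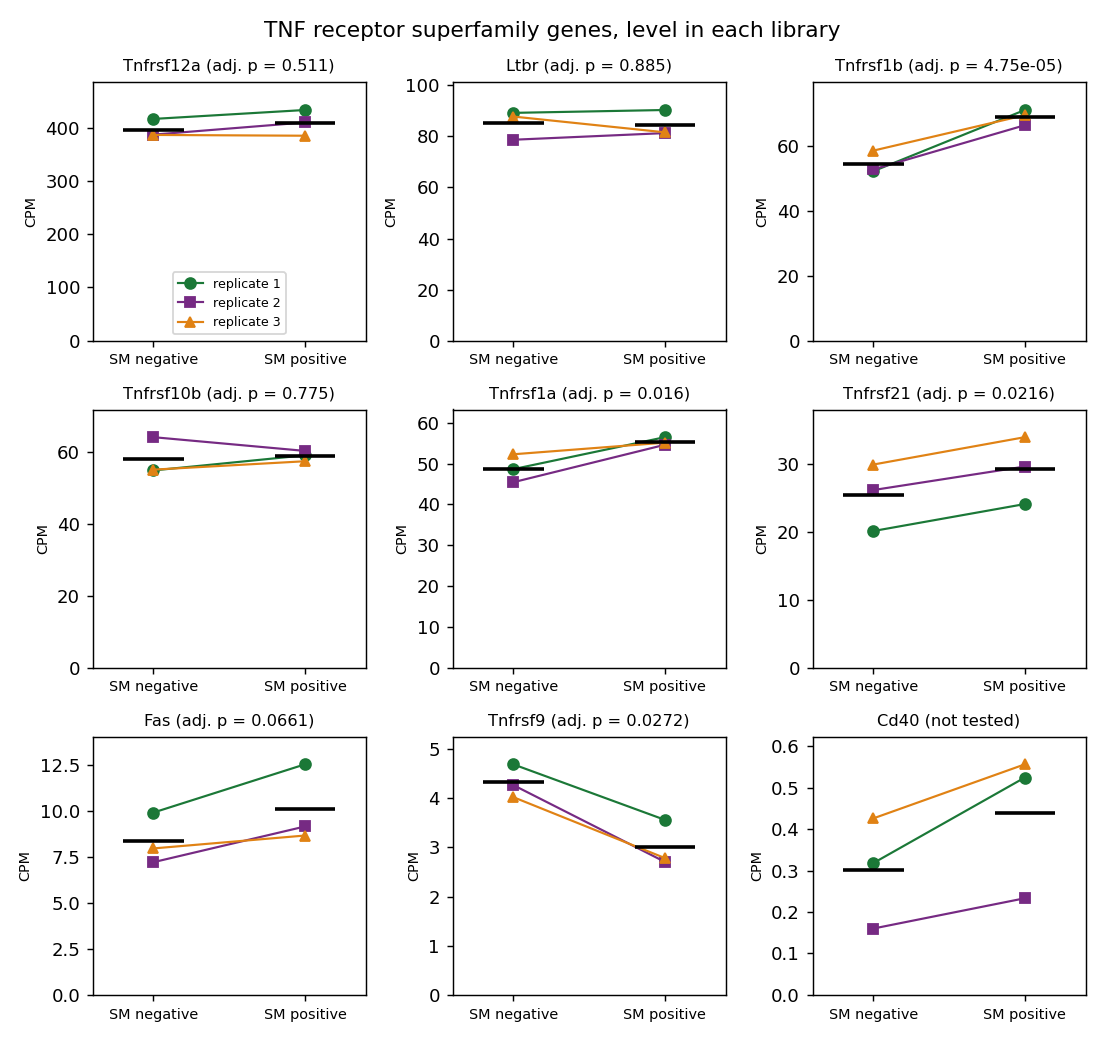
Level (CPM, each axis from 0) of 9 receptors in every library, ordered by mean level. Colours and lines join the SM negative and SM positive libraries of 1 replicate number, and black bars are means over 3 libraries. All 3 lines point up for Tnfrsf1b, Tnfrsf1a, Tnfrsf21, Fas and Cd40 and down for Tnfrsf9. Tnfrsf11b, with 1 count in all, is not drawn.

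Tnfrsf9 encodes 4-1BB, a co-stimulatory receptor best known on activated T cells (ENSMUSG00000028965.13, protein coding, chromosome 4, 150914562 to 150946102, plus strand). It was the receptor that fell. Its levels were 4.69, 4.27 and 4.02 CPM in SM negative replicates 1 to 3, from 118, 80 and 85 counts. They were 3.56, 2.71 and 2.78 CPM in SM positive replicates 1 to 3, from 95, 58 and 55 counts. Every SM positive library lay below every SM negative library, and the log2 ratio within pairs 1, 2 and 3 was -0.35, -0.57 and -0.46. The means were 4.33 ± 0.338 and 3.02 ± 0.473 CPM (SD, n = 3 each), with a log2 change of -0.52 ± 0.153 (SE, edgeR adjusted p = 0.0272). The call ended without pairing (edgeR adjusted p = 0.207), with DESeq2 (0.395) and with pair 1, 2 or 3 left out (0.102, 0.126 and 0.127). Camta1 overlaps Tnfrsf9 on the opposite strand, and whether reads were counted by strand is unknown here, so its counts may include antisense reads. The T cell marker Cd3e had 0 counts in all 6 libraries. Cd68, a macrophage marker, fell from 6.74 to 4.89 CPM on average (log2 change -0.46, edgeR adjusted p = 0.0148 paired and 0.233 unpaired). It was the only 1 of the 10 leukocyte markers with enough counts to be tested. Of the other macrophage and myeloid markers, Adgre1 had 0 counts, and Csf1r averaged 0.315 CPM in SM negative and 0.346 CPM in SM positive cells. In the same order Itgam averaged 0.107 and 0.0669 CPM, Lyz2 0.259 and 0.200 CPM, and Fcgr3 0.0626 and 0 CPM. The part of these markers in the Tnfrsf9 result was not tested.

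Tnfrsf12a encodes Fn14, the receptor for TWEAK (ENSMUSG00000023905.14, protein coding, chromosome 17, 23675445 to 23677468, minus strand). Its levels were 418, 388 and 388 CPM in SM negative and 435, 411 and 386 CPM in SM positive replicates 1 to 3. The fractions overlapped (log2 change 0.045 ± 0.0392 SE, edgeR adjusted p = 0.511). Ltbr encodes the lymphotoxin β receptor, which activates the non-canonical NF-κB branch (ENSMUSG00000030339.7, protein coding, chromosome 6, 125306571 to 125313885, minus strand). Its levels were 89.3, 78.7 and 87.8 CPM in SM negative and 90.4, 81.3 and 81.6 CPM in SM positive replicates 1 to 3. They overlapped too (log2 change -0.013 ± 0.0439 SE, edgeR adjusted p = 0.885).

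Cd40 and Tnfrsf11b were too low to test. Cd40, the receptor for CD40 ligand on antigen-presenting cells (ENSMUSG00000017652.16, protein coding, chromosome 2, 165055627 to 165072948, plus strand), had 8, 3 and 9 counts in SM negative and 14, 5 and 11 counts in SM positive replicates 1 to 3. Each SM positive library was above its partner in CPM, the fractions overlapped, and without the filter on low counts the edgeR adjusted p was 0.789. The depth is too low to show a difference. Tnfrsf11b, which encodes osteoprotegerin, the decoy receptor for RANK ligand and TRAIL (ENSMUSG00000063727.3, protein coding, chromosome 15, 54250619 to 54278484, minus strand), had 1 count in SM positive replicate 2 and 0 in the other 5 libraries. A count of 0 allows up to 3 counts, or 0.112 to 0.16 CPM depending on the library, and covers counting error only.

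Of 18 other receptor genes of the family, 10 could be tested, 1 rose and none fell, with a median log2 change of 0.084 (3 had an unadjusted p under 0.05). That count is near the 8.52% of all genes tested that were higher and is no result about the list. Tnfrsf19 (TROY), an orphan receptor of epithelial progenitors, rose from 1.45 ± 0.193 to 2.38 ± 0.57 CPM (SD, n = 3 each). Its counts were 31, 28 and 34 in SM negative and 56, 43 and 60 in SM positive replicates 1 to 3, with no overlap in CPM (log2 change 0.71 ± 0.214 SE, edgeR adjusted p = 0.0296). That call ended without pairing (edgeR adjusted p = 0.215), without robust estimation (0.0504), and without pair 1 (0.175) or pair 3 (0.23). Tnfrsf13b, Tnfrsf17 and Eda2r had 0 counts in all 6 libraries.

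Transcripts for the ligands were scarce. Of 18 TNF family ligands, 6 had 0 counts in every library, 11 had at most 3 counts in any library and 5 could be tested. None of the 5 passed edgeR's paired test in either direction, against 14.1% of all genes tested, and 1 had an unadjusted p under 0.05. None passed with DESeq2 or limma-voom. With so few genes these counts are no result about the list. Tnf itself had 0 to 2 counts per library and Fasl 0 or 1. Cd40lg and Tnfsf11, which encodes RANK ligand, had 0 counts in all libraries. The most abundant ligand was Tnfsf9, which binds the 4-1BB receptor, at 8.71, 14.1 and 11.9 CPM in SM negative and 11.1, 13.6 and 13.1 CPM in SM positive replicates 1 to 3 (log2 change 0.14, edgeR adjusted p = 0.35). Tnfsf10, which encodes TRAIL, stood at 2.62 ± 0.515 and 3.50 ± 0.456 CPM (SD, n = 3 each), and its fractions did not overlap, with 2.94 CPM the highest SM negative and 2.99 CPM the lowest SM positive value (log2 change 0.42, edgeR adjusted p = 0.0995). Tnfsf12, which encodes TWEAK, the ligand of the abundant Fn14 receptor, was listed at 0 in all libraries. It lies under the read-through gene Tnfsfm13, which had at most 3.57 expected counts, and reads of the overlapping genes may have been shared out by the counting.

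Of 25 adaptor and ubiquitin enzyme genes tested, 2 rose and 3 fell, against 8.52% and 5.6% of all genes tested. The median log2 change was -0.0018, and 10 of the 25 had an unadjusted p under 0.05. Tnfaip3 encodes A20, an inducible inhibitor of NF-κB that edits ubiquitin on RIPK1. It stood at 260.5, 369.3 and 368.5 CPM in SM negative and 302.6, 431.3 and 458.6 CPM in SM positive replicates 1 to 3. The fractions overlapped, and every pair was higher in SM positive cells (log2 change 0.25 ± 0.0396 SE, edgeR adjusted p = 0.000189). Unpaired with 1 library left out, the log2 change ran from 0.11 without SM negative replicate 1 to 0.42 without SM positive replicate 1. Tab3, a partner of the TAK1 kinase, rose by 0.16 ± 0.0414 on the log2 scale (SE, edgeR adjusted p = 0.0146).

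Traf4, an adaptor abundant in mammary carcinoma cells, fell from 70.6 ± 5.37 to 59.3 ± 6.33 CPM (SD, n = 3 each) with no overlap between fractions (log2 change -0.25 ± 0.0444 SE, edgeR adjusted p = 0.000607). Traf1, an NF-κB-induced partner of TRAF2 under TNFR2, stood at 75.6, 56.3 and 56.6 CPM in SM negative and 64.4, 51.6 and 44.3 CPM in SM positive replicates 1 to 3. It was lower in SM positive cells in every pair, with overlapping fractions (log2 change -0.24 ± 0.0493 SE, edgeR adjusted p = 0.00283). Unpaired, its log2 change ran from -0.076 without SM negative replicate 1 to -0.39 without SM positive replicate 1. Tnip1, which encodes the A20 partner ABIN1, passed at the edge of the threshold (log2 change -0.18 ± 0.0588 SE, edgeR adjusted p = 0.0437). Its call ended with unscaled library totals (edgeR adjusted p = 0.0505), limma-voom (0.0914), non-robust estimation (0.0729), DESeq2 (0.388) and without pair 2 (0.164) or 3 (0.325), and its log2 change was -0.28 without pair 1. The other 20 genes of this list did not pass, Ripk1, Tradd, Fadd and Traf2 among them.

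Of 14 death signalling genes tested, 2 rose and none fell, with 4 at an unadjusted p under 0.05 and a median log2 change of 0.028. The count called is at the 14.1% of all genes tested and is no result about the list. Cflar encodes c-FLIP, the inhibitor of caspase-8 at death receptors, and stood at 51.0, 55.7 and 50.9 CPM in SM negative and 58.1, 59.3 and 58.8 CPM in SM positive replicates 1 to 3. The fractions did not overlap (log2 change 0.16 ± 0.0469 SE, edgeR adjusted p = 0.0247). Apaf1, the scaffold of the apoptosome, rose by 0.18 ± 0.056 on the log2 scale (SE, edgeR adjusted p = 0.0334). Ripk3, the kinase of necroptosis, had 1 count in SM negative replicate 1 and 0 in the other 5 libraries, while its substrate gene Mlkl stood at 56.6 to 67.9 CPM.

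Of 11 IKK and NF-κB genes tested, none rose and Nfkbib fell, with 4 at an unadjusted p under 0.05 and a median log2 change of -0.048. Of all genes tested 14.1% passed, so the count is no result about this list either. Nfkbib encodes IκBβ, an inhibitor of NF-κB, and went from 22.9 ± 1.96 to 18.99 ± 1.24 CPM (SD, n = 3 each; log2 change -0.27 ± 0.0674 SE, edgeR adjusted p = 0.0106) with no overlap. Of 5 genes for shedding of receptors, 4 could be tested and 2 rose, against 8.52% of all genes tested, with a median log2 change of 0.071. With so few genes the count is a description. Adam17 encodes the protease that releases TNF and both TNF receptors from the cell surface. It rose from 90.2 ± 3.91 to 100.5 ± 2.52 CPM (SD, n = 3 each; log2 change 0.16 ± 0.0442 SE, edgeR adjusted p = 0.0205). Adam10, a related sheddase, rose from 161.6 ± 9.70 to 182.7 ± 2.89 CPM (SD, n = 3 each; log2 change 0.18 ± 0.0415 SE, edgeR adjusted p = 0.00624). Libraries of the 2 fractions did not overlap for either sheddase gene, as for 10.4% of all genes tested in the same direction. Timp3, which encodes the natural inhibitor of ADAM17, had 1 count in 1 library. None of the genes of these lists passed without pairing, where the 11 that passed with it had edgeR adjusted p from 0.209 to 0.765. With DESeq2 and the pairing, Tnfaip3, Traf4 and Adam10 kept their calls, and Tnfaip3 and Traf4 also passed with each pair left out in turn. Adam10 did not pass without pair 1 (edgeR adjusted p = 0.102) or pair 3 (0.0918). The calls of Tab3, Traf1, Cflar, Apaf1, Nfkbib and Adam17 ended with DESeq2 (adjusted p from 0.0687 to 0.449). They also ended without pair 1 (edgeR adjusted p from 0.0574 to 0.362) and without pair 3 (0.0598 to 0.155). Among them only Apaf1 ended without pair 2 (0.0756). Without pairing, an unadjusted edgeR p under 0.05 was found for 3 of 10 other receptors tested and 2 of 25 adaptor and ubiquitin genes. The same held for 2 of 14 death signalling genes, 1 of 11 NF-κB genes, 2 of 4 shedding genes and 0 of 5 ligands. The share of all genes at that unadjusted threshold is not given here, paired or unpaired, so such counts are no result about any list.

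**Figure D4:**
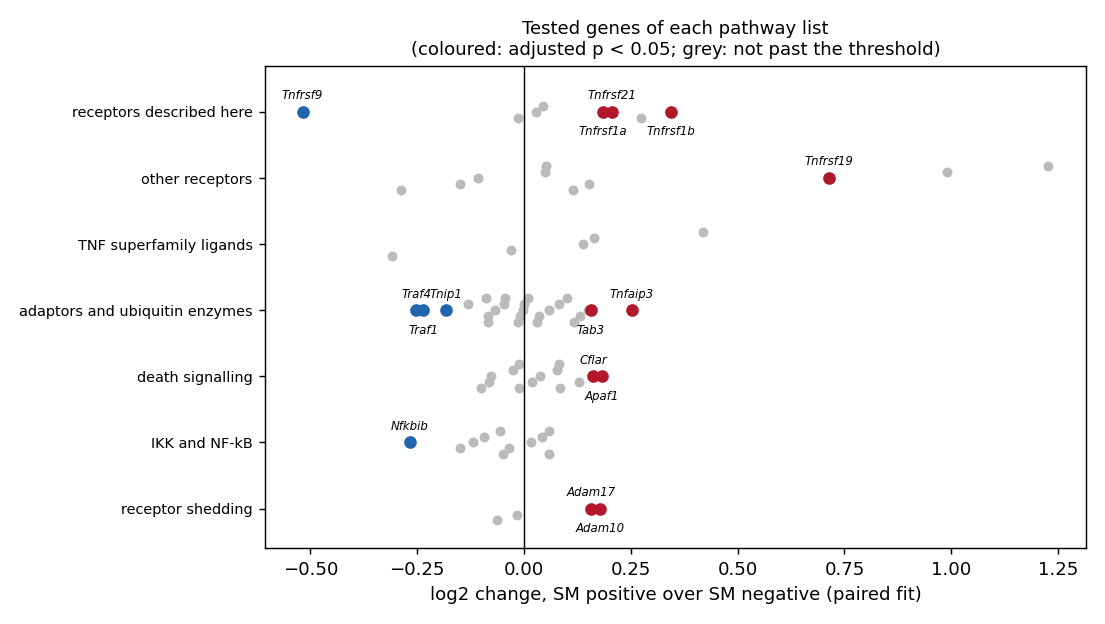
Log2 change, SM positive over SM negative in the paired fit, of every tested gene in each list. Coloured and named points passed an adjusted p of 0.05 over all genes tested and grey points did not. The receptors described here run from -0.52 for Tnfrsf9 to 0.34 for Tnfrsf1b.

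The genes whose level followed Tnfrsf1b most closely over the 6 libraries were Prom2, Add3, Matn2, Jak2 and Unc5b. Likeness was the mean absolute difference of log2 CPM, each gene centred on its own mean, among 9773 genes of at least 5 CPM. It was 0.023 for Prom2, which encodes a membrane protein of epithelial protrusions, and rose to 0.031 for Unc5b, a netrin receptor. Jak2, the tyrosine kinase under many cytokine receptors, differed by 0.031. With 6 libraries and this many candidates, close patterns of this kind are a description only.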

How the data were processed

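The authors deposited expected counts per gene for 6 polyadenylated RNA libraries made with a stranded kit, per the labels' protocols. The submitters' processing notes name FastQC 0.11.5, STAR 2.6.0a, RSEM 1.3.1 and the GRCm38 build, with no role or order, while no source used here gives the annotation release or strand setting. Between 13.5% and 14.4% of a library's values were not whole, and they were rounded. Identifiers were matched without version to GENCODE M21 (99.8% of 53465), and upstream windows came from RefSeq.

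Genes kept by filterByExpr (14038) were tested with edgeR 4.0.16 (R 4.3.3; TMM, robust quasi-likelihood, replicate number as a block, threshold 0.05). The block follows the rule by which the receptors were to be compared. It was checked on deviations from fraction means: same-number correlations were 0.373, 0.359 and 0.28 (minimum required 0.1), the others -0.287 to -0.053. Deviations within a fraction cancel out, so positive same-number values tend to make the others negative, and the others are no separate check. DESeq2 1.42.0, limma 3.58.1 and other settings were alternatives, and the scripts were tested on simulated data. The receptors, 10 companion lists and the naming rule (all receptors; up to 3 genes per direction and pathway list by smallest p, if they averaged 1 CPM or more; the 2 most abundant of each marker list; the 5 closest patterns) were chosen with earlier results of these data known. Genes named for being low or absent, or beyond that rule, were chosen after their values were seen.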

Additional observations from a re-analysis of the deposited data

How the results depend on the processing

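Depth limits the receptors near or below the filter, Cd40 and Tnfrsf11b, and widens the error of Tnfrsf9, which rests on 55 to 118 counts per library. Most calls depend on the pairing, while the log2 changes of the 4 called receptors hardly moved without it (Tnfrsf1b 0.34 in both fits, Tnfrsf1a 0.19 and 0.18, Tnfrsf21 0.21 and 0.20, Tnfrsf9 -0.52 and -0.51), and Tnfrsf1b kept its call. With no replicate block, 190 genes passed against 1982 (160 higher and 30 lower against 1196 and 786), 1 receptor was higher and 0 lower against 3 and 1, and 0 pathway list genes were higher and 0 lower against 7 and 4. Of calls without the block 84.2% were higher, against 60.3% with it. With DESeq2 and the block, 616 passed (423 and 193), with 1 and 0 receptors and 2 and 1 list genes; DESeq2 gave Tnfrsf19 no adjusted p. At an adjusted p under 0.01, 939 passed (661 and 278), with 1 and 0 receptors and 2 and 2 list genes.

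Without pair 1, 2 or 3, 705, 1793 and 886 genes passed (506, 1029 and 637 higher, and 199, 764 and 249 lower), with 1 to 2 receptors higher and 0 lower. List genes numbered 1 to 8 higher and 1 to 3 lower. Without the block, 43, 25 and 39 genes passed without SM negative replicate 1, 2 or 3 (37, 21 and 34 higher, 6, 4 and 5 lower), while leaving out replicate 1, 2 or 3 of the SM positive libraries left 123, 117 and 48 (97, 102 and 40 higher, 26, 15 and 8 lower), with 0 receptors and 0 list genes in each. Uncalled log2 changes near 0 turned sign. Tnfrsf10b ran from -0.018507 to 0.084558 with a pair left out, and was -0.016439 and -0.011871 unpaired without SM negative replicate 1 and 3. Ltbr ran from -0.040972 to 0.031927 with a pair left out, and was 0.019752 and 0.0070619 unpaired without SM negative replicate 1 and 3, and 0.013144 and 0.010242 without SM positive replicate 2 and 3. The cause was not tested.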
